A study of Arabidopsis thaliana with 31 samples.

Results

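Single cells of the quiescent center (QC) of the *Arabidopsis thaliana* root were compared with single cells of the stele, the central tissue that holds the vascular strands. The comparison used 20 QC cells and 3 stele cells, 23 of the 31 samples of the series, and they were taken by their labels of cell type and time. The other samples, 4 aliquots of pooled QC cells and 4 stele cells picked 16 h after removal of the root tip, entered no value given here. The study profiled each cell by RNA-seq to ask how the identity of a cell can be read from its transcripts.

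The QC cells came from Col-0 plants that carried the *WOX5:GFP* reporter and were labelled 6 days after stratification (DAS), where the methods of the study give an earlier harvest. The stele cells came from Col-0 plants labelled 7 DAS that carried *WOL:CRE-GR 35S:lox-CFP*. In that line, dexamethasone activates a Cre recombinase driven by the *WOL* promoter, and the cells in which it acts and their descendants carry CFP, so that the marked cells are a clone of the *WOL* domain rather than a defined cell type. The plants of the stele cells had been treated with dexamethasone, and their root tip with the QC was cut off just before harvest, which is the 0 h point. All cells of both kinds went through the same digestion of the cell wall, were picked under the microscope with a glass pipette, and had their polyA RNA amplified cell by cell. Cell type, reporter line, age, dexamethasone and cutting changed together between the 2 groups and cannot be told apart. No plant is named for a cell. Per the methods the QC cells were collected in several batches, but the labels give no batch for a cell, so the library sets described below could not be matched to them. Each cell type counts as 1 sample, and differences are described without a test.

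The QC is a small group of slowly dividing cells at the root tip that keeps the surrounding stem cells undifferentiated. *WOX5*, a homeobox gene, marks it, and the PLETHORA transcription factors and the GRAS protein SCR act with it in the stem cell niche. In the stele, the GRAS protein SHR is made and moves outward, the cytokinin receptor WOL acts in the vascular cylinder, and class III homeodomain leucine zipper proteins pattern xylem and phloem. The stele cells behind the tip divide and elongate, and QC cells seldom do.

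Values are given as fragments per 1000000 (FPM), the share of a gene in the library total times 1000000, after the deposited log2 values were turned back. They are not divided by gene length, so levels are compared between cells and not between genes. For the 20 QC cells the lowest, median and highest value are given in that order, and for the 3 stele cells the values of cells 1, 2 and 3. A difference is the median of log2(FPM + 1) over QC cells minus the median over stele cells, so that a positive number means higher in QC cells, and a gene was called past the fold at a difference of 2 or more in either direction. The added 1 FPM understates the difference of low genes.

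The QC libraries held 12071810 to 115114702 reads and 4646 to 11035 detected genes, and the stele libraries 11637897 to 28121886 reads and 11833 to 13082 detected genes, where detected means a value above 0. The QC libraries fall into 4 sets, by nested lists of detected genes for the first 3: QC cells 1 and 8 to 13, QC cells 2 to 7, QC cells 14, 19 and 20, and QC cells 15 to 18, which lie in no other set. The set of QC cells 14, 19 and 20 was the deepest, with 93606126 to 115114702 reads and 9474 to 11035 genes. The genes detected in stele cells 2 and 3 were all among those of stele cell 1, those of QC cells 8 to 13 among those of QC cell 1, those of QC cells 3 to 7 among those of QC cell 2, and those of QC cells 19 and 20 among those of QC cell 14, so that a gene at 0 in the first library of such a set was at 0 in all of it. Of all genes with a value above 0 in at least 1 of the 23 cells, 16270 in all, the median difference was -1.90, and every QC cell had fewer detected genes than every stele cell. Over the 1742 genes detected in all 23 cells the median difference was -0.48. QC cells 15 and 16, and QC cells 17 and 18, stood apart as pairs. Over all genes tested their log2 values correlated with r = 0.984 and 0.983, against 0.157 to 0.905 for the other 188 pairs of QC cells. Among the other pairs, QC cells 9 and 11 had 0.905 and QC cells 5 and 7 had 0.867, and the next highest was 0.624. The counts of QC cells 15 and 16, and of QC cells 17 and 18, differed by a chi-square per gene of 27.4 and 17.55. A value of 1 would be counting error alone, and the lowest among the other pairs was 879, for QC cells 9 and 11. Whether QC cells 15 and 16, or 17 and 18, are 2 cells or 2 libraries of the same cDNA cannot be told apart from these values. The cells are counted here as labelled. With each of these 2 pairs averaged to 1 cell, 52 genes in place of 27 had every QC cell above every stele cell. Past the fold toward QC cells were 418 in place of 435. In single cells, less RNA per cell, a lower share of RNA captured and lower expression cannot be told apart.

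**Figure D1:**
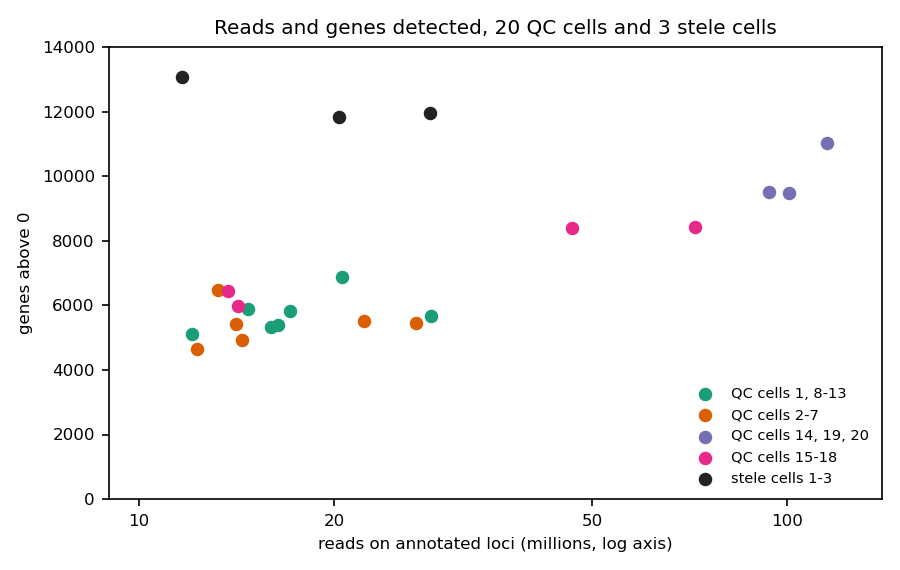
Reads on annotated loci in units of 1000000 (x, log axis) against genes detected above 0 (y) for 20 QC cells, coloured by library set, and 3 stele cells (black). The stele cells reached 11833 to 13082 genes, and no QC cell did, the highest being 11035.

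The markers of the labels were checked first. *WOX5* gave 124, 835 and 3193 FPM in QC cells, against 5.24, 0 and 0 FPM in stele cells, a difference of 9.70. Every QC cell was above every stele cell, also above stele cell 1, which alone of the stele cells had reads on the gene. *SHR* was above 0 in 1 QC cell, at 0.0644 FPM, against 49.7, 149 and 25.6 FPM in stele cells. *WOL* was at 0 in all 20 QC cells, against 125, 44.8 and 37.8 FPM in stele cells. *SCR*, which marks the QC and the endodermis, gave 0.106, 30.3 and 1918 FPM in QC cells and 0 FPM in all 3 stele cells. It was uneven among QC cells, reaching 10 FPM in 11 of 20. *GL2*, a regulator of non-hair epidermis, was detected in 1 QC cell at 1.40 FPM and in no stele cell.

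Other root tissues were checked by lists of their markers. No member of the list of endodermis and cortex regulators was detected in any of the 23 cells. The microarray-based endodermis markers of the study summed to 0, 13.4 and 100.5 FPM in QC cells and 27.2, 15.6 and 21.1 FPM in stele cells, with 4 of 20 detected. The columella markers summed to 15.4, 682 and 4896 FPM in QC cells, against 56.5, 104 and 76.3 FPM in stele cells, with 11 of 22 detected and 1 past the fold toward QC cells against 2 toward stele cells. The member toward QC cells was the locus AT3G18230, with a median of 449.5 FPM in QC cells, against a median of 51.6 FPM in stele cells. *SMB*, a defining regulator of the root cap, was not detected in any cell. Of the 5 root cap genes listed, only *CEL5* was detected. It reached 160 FPM in QC cells, 3 of which detected it, against 3.61, 0.213 and 0.246 FPM in stele cells. The part of these columella markers in the results that follow was not tested.

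**Figure D2:**
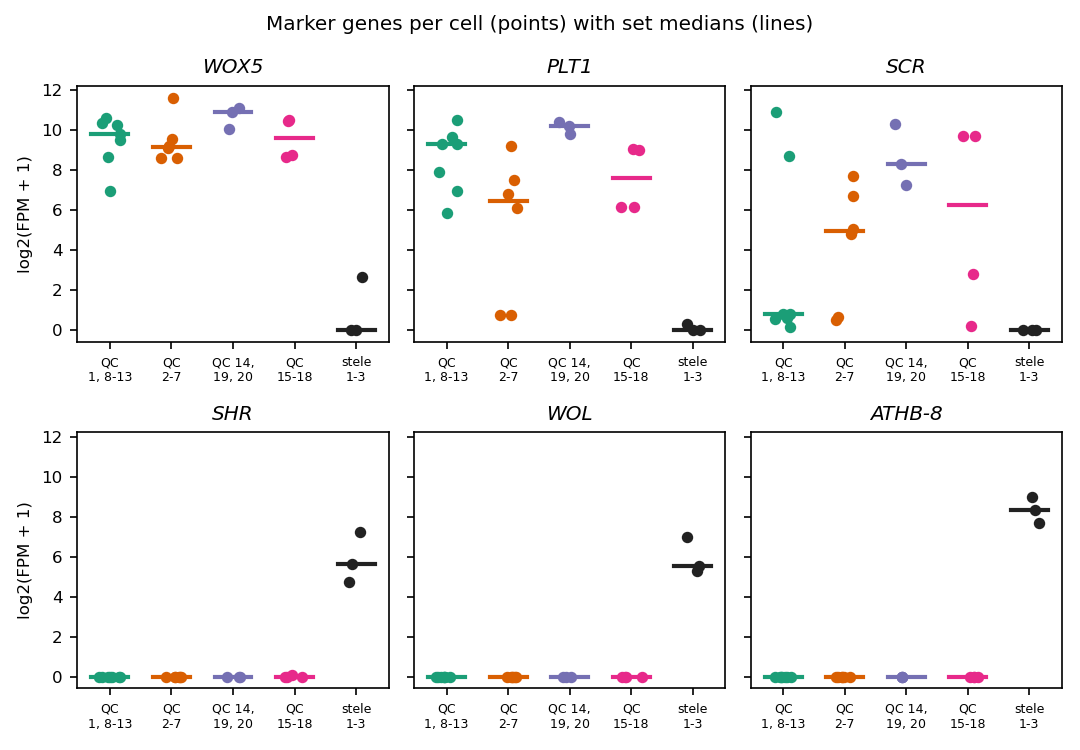
Level of 6 marker genes as log2(FPM + 1) (y) in each QC cell, by library set, and in each stele cell (points), with the median of each set (lines). *WOX5* and *PLT1* lay above the stele cells in all 20 QC cells, *SCR* split the QC cells, and *SHR*, *WOL* and *ATHB-8* lay above 0 in the stele cells and at or near 0 in QC cells.

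Far more genes were higher in stele cells than in QC cells. Every QC cell was above every stele cell for 27 genes, or 0.166% of the genes tested, and every stele cell was above every QC cell for 2359 genes, or 14.5%. Of the 27, 19 were at 0 in all stele cells, and 7 had 1 FPM or more in the lowest QC cell. Past the fold, 435 genes were higher in QC cells, or 2.67%, and 7980 were higher in stele cells, or 49.0%. Taken relative to the median difference of -1.90, a choice added after the data were seen, 1426 genes were past the fold toward QC cells and 4931 toward stele cells. In at least 15 QC cells and no stele cell, 182 genes were detected, or 1.12%, and in all 3 stele cells and no QC cell 1494 genes, or 9.18%. The count of 27 depended on depth and on single libraries and sets. It was 18 with libraries thinned to the lowest total and 60 without stele cell 1. Leaving out each of the 4 sets of QC cells in turn gave 41 to 95. Without QC cells 14, 19 and 20 the 2359 genes became 3817 and the 1494 became 2607. Counts of list members below are read against these shares.

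Most QC-high genes were also detected in the stele, as were most of all genes tested. Of the 435 genes past the fold, 310 were detected in all 3 stele cells and 56 in none. Of the 16270 genes tested, each stele cell detected 11833 to 13082. A further 41 were detected in 1 stele cell, and in each of these genes that was stele cell 1, at a median of 2.58 FPM. Across the 4 QC library sets, 84 of the 435 passed the fold in every set taken alone. In the other direction 3890 of the 7980 did.

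**Figure D3:**
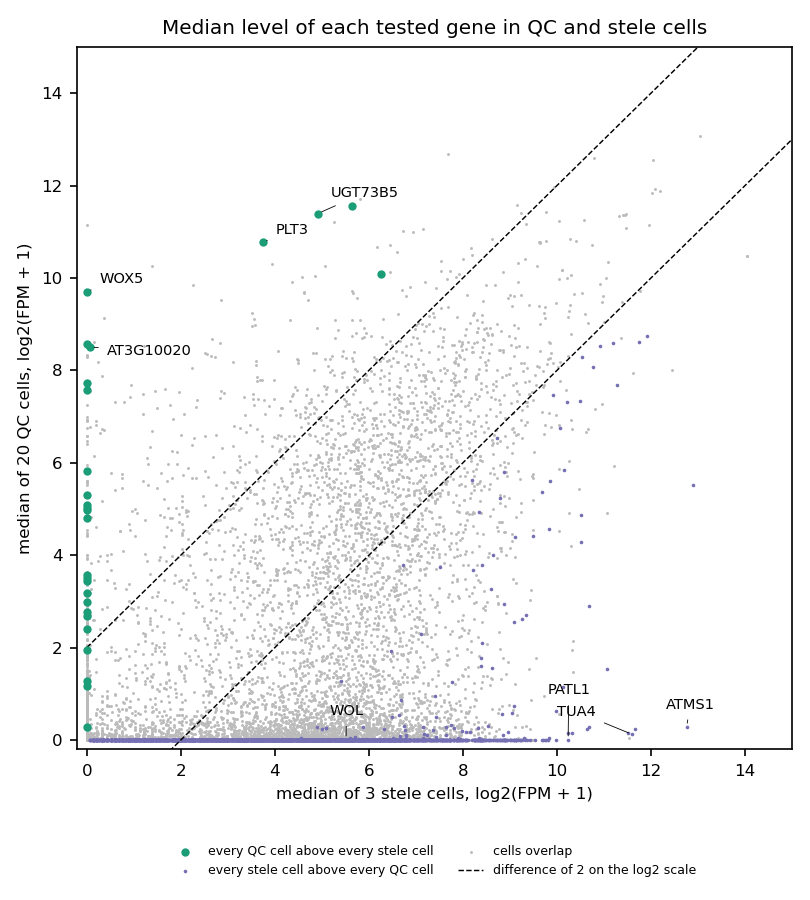
Median level of each of 16270 genes in 3 stele cells (x) and in 20 QC cells (y), both as log2(FPM + 1), with dashed lines at a difference of 2. Green points are the 27 genes with every QC cell above every stele cell and purple points the 2359 genes with every stele cell above every QC cell, most of which lie along the bottom edge, at a QC median of 0.

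Regulators of the QC and the stem cell niche were mostly higher in QC cells. Of 21 listed genes, 19 were detected, 9 were past the fold toward QC cells and 1 toward stele cells, with a list median of 1.40 against -1.90 for all genes tested. Over all genes tested the shares were 2.67% and 49.0%. For 4 of the listed genes, *WOX5*, *PLT1*, *PLT3* and *SCR*, no QC cell overlapped a stele cell, beside 0.166% of all genes tested. The whole list summed to 1345, 5126 and 10433 FPM in QC cells, against 107, 29.3 and 20.7 FPM in stele cells.

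The PLETHORA genes encode AP2-domain transcription factors that maintain the root meristem in a graded manner. *PLT1* gave 0.674, 382 and 1473 FPM in QC cells and 0.258, 0 and 0 FPM in stele cells, a difference of 8.47. Its 2 lowest QC cells, 3 and 4, were under 1 FPM but still above stele cell 1. *PLT3*, named *AIL6* in the annotation, gave 111, 1744 and 4911 FPM in QC cells and 28.0, 5.83 and 12.4 FPM in stele cells, a difference of 7.02, and was present in all cells of both types. *BBM* gave 2.13, 362 and 1072 FPM in QC cells and 10.9, 0 and 0 FPM in stele cells, and 18 of 20 QC cells lay above all stele cells. *PLT2* gave 0.142, 55.1 and 1177 FPM in QC cells and 3.27, 0 and 0 FPM in stele cells, a difference of 5.80. The stele values of *BBM* and *PLT2* came from stele cell 1 alone.

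*BRAVO*, an R2R3 MYB factor that represses division of QC cells, gave 0.292, 314 and 1480.3 FPM in QC cells and 14.6, 0 and 0 FPM in stele cells, with 15 of 20 QC cells above all stele cells. The QC cells below stele cell 1 held less than 1 FPM, so the gene was either well above or near 0 in a given QC cell. *WIP4*, a zinc finger gene of root initiation, gave 0.163, 61.3 and 1357 FPM in QC cells and 0.172, 0 and 0 FPM in stele cells. It differed among library sets, with a difference of 0.63 in QC cells 2 to 7 and 10.14 in QC cells 14, 19 and 20. *RGF3*, which encodes a peptide signal of the meristem, was at 0 in all 3 stele cells and gave 0, 6.50 and 751 FPM in QC cells. *JKD*, a zinc finger partner of SCR and SHR, was detected in 17 QC cells but had a median of 0.266 FPM and a difference of 0.34. *MP*, an auxin response factor that acts in the niche and in the vasculature, had a difference of 1.51, short of the fold, with 0, 36.6 and 1098 FPM in QC cells and 3.09, 6.37 and 93.1 FPM in stele cells, and the groups overlapped.

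The exception in the list was *ERF115*, an ethylene response factor gene that drives division of QC cells. It was detected in 4 of 20 QC cells and reached 102 FPM there, against 6.36, 4.98 and 8.02 FPM in stele cells, a difference of -2.88. *AGL42*, *RGF1* and *NUC* were detected in 1 to 3 QC cells at under 1 FPM, and *ACR4* in stele cell 1 only.

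Of the 24 QC markers that the study had taken from microarrays of sorted tissues, 23 were detected, 8 were past the fold toward QC cells and 0 toward stele cells. Over all genes tested the shares were 2.67% and 49.0%. All 23 were above 0 in some QC cell, and 11 in some stele cell. The list median was 0.00, against -1.90 for all genes tested, and many members were found in a few QC cells only. Beside *PLT1*, *BBM* and *WIP4*, the members past the fold were *APL4*, a starch synthesis gene, *IAA33*, *RIP5*, *RGF8* and *GA3*. *APL4* gave 0.109, 187 and 801 FPM in QC cells and 1.72, 1.96 and 0 FPM in stele cells, a difference of 6.10. *RIP5*, a partner of ROP GTPases, gave 1.56, 103 and 1145 FPM in QC cells and 17.8, 1.64 and 1.18 FPM in stele cells, and 13 of 20 QC cells lay above all stele cells. *IAA33*, an atypical Aux/IAA protein gene, was at 0 in QC cells 14, 19 and 20 by their median and had a difference of 5.75 over all 20 QC cells. *GA3*, which encodes the ent-kaurene oxidase of gibberellin synthesis, gave 1.27, 229.5 and 1490.5 FPM in QC cells and 42.1, 60.6 and 7.18 FPM in stele cells. Several markers were high in the deepest set, among them *NPY4* with a difference of 10.59 in QC cells 14, 19 and 20 and 0.08 in QC cells 1 and 8 to 13.

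**Figure D4:**
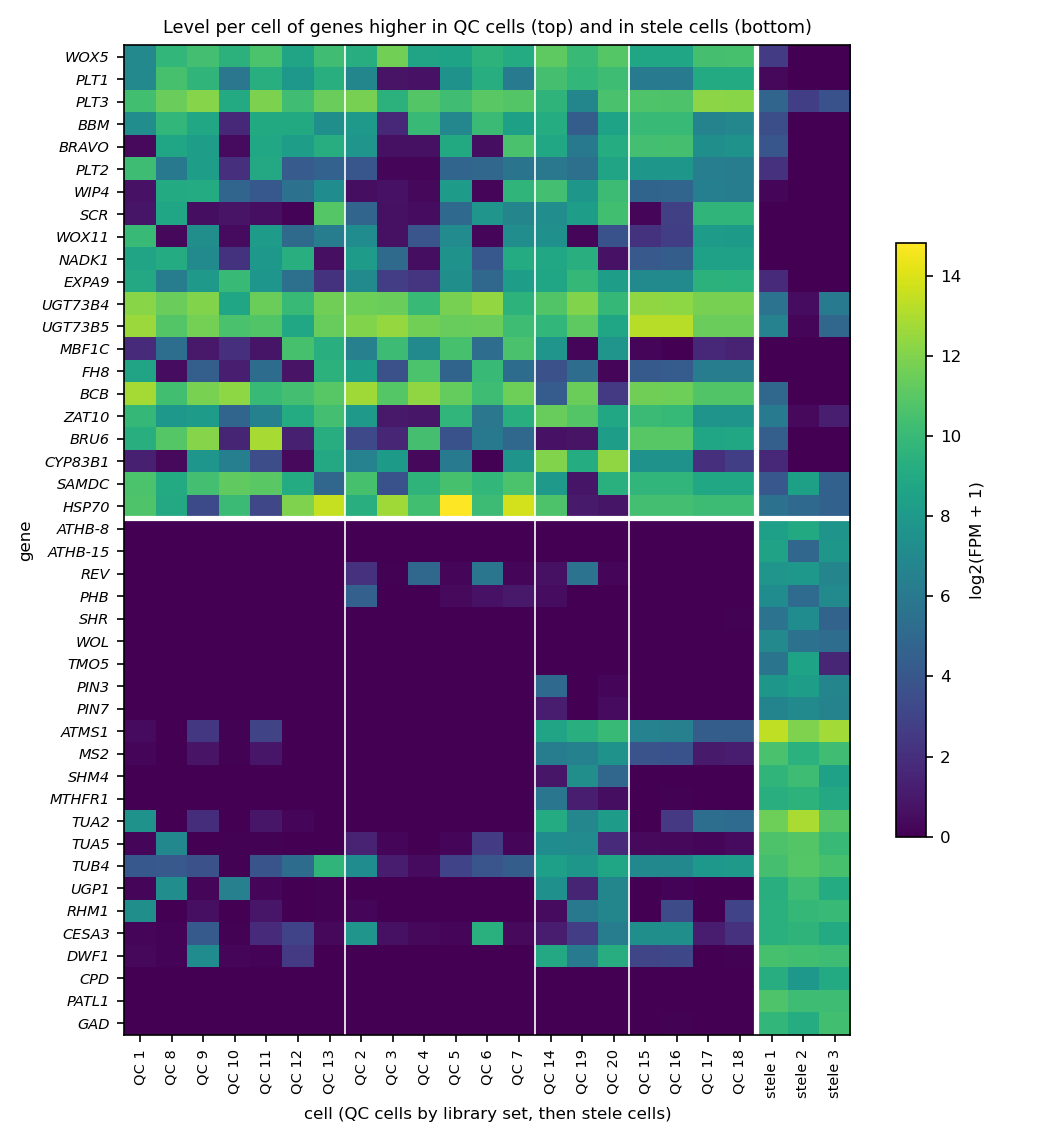
Level as log2(FPM + 1) (colour) of 44 genes (rows) in 20 QC cells, ordered by library set and divided by thin lines, and 3 stele cells (right of the thick line). The genes were chosen after their values were seen. Genes of the upper block were high in most QC cells but low in some, and genes of the lower block were above 0 in all 3 stele cells, with the QC cells that carried them mostly QC cells 14 to 20.

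Of the 12 genes with the largest differences among those where every QC cell was above every stele cell, *WOX5*, *PLT1* and *PLT3* belong to the niche list and the others do not. The locus AT3G10020 gave 13.2, 363 and 2702 FPM in QC cells and 4.12, 0.0356 and 0.0492 FPM in stele cells, a difference of 8.44. *NADK1*, an NAD kinase gene, gave 0.449, 211 and 637 FPM in QC cells and 0 FPM in all 3 stele cells. *EXPA9*, an expansin of wall loosening, gave 3.45, 191 and 1020.5 FPM in QC cells and 2.58, 0 and 0 FPM in stele cells. All 3 were found in all 20 QC cells.

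*UGT73B5* and *UGT73B4*, neighbouring genes for stress-related glycosyltransferases, were found in every QC cell. *UGT73B5* gave 438, 2694 and 9667 FPM in QC cells and 92.4, 0.178 and 29.2 FPM in stele cells, a difference of 6.48. *UGT73B4* gave 409.8, 3023 and 5379 FPM in QC cells and 48.6, 0.391 and 68.4 FPM in stele cells, a difference of 5.93. Stele cells 1 and 3 held reads on them and stele cell 2 almost none, and no QC cell overlapped a stele cell. The 2 genes are close copies that overlap in the annotation, and reads with several locations were counted in part, so that their shares are uncertain. Of the 5 *UGT73B* genes, a family picked after the values were seen, 4 were past the fold toward QC cells and none toward stele cells, and *UGT73B2* gave 3.75, 1058 and 3467 FPM in QC cells and 27.9, 0.284 and 43.6 FPM in stele cells.

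*WOX11*, a homeobox gene known from founder cells of adventitious roots, was detected in all 20 QC cells, with 0.163, 55.7 and 990.1 FPM, and was at 0 in all 3 stele cells. *MBF1C*, a coactivator of the heat response, was at 0 in stele cells and gave 0.0277, 38.7 and 1479 FPM in QC cells. It was uneven across the sets, with a difference of 8.61 in QC cells 2 to 7 and 0.84 in QC cells 15 to 18. *MLO11*, a membrane protein gene, and *FH8*, a formin that nucleates actin, had medians of 33.0 and 31.6 FPM in QC cells and were at 0 in stele cells. The zeros of stele cells 2 and 3 follow the list of genes detected in stele cell 1, and per the methods genes of low coverage were removed, so a 0 is given as deposited, with no limit from read counts. The lowest QC cell had 0.0277 FPM of *MBF1C*, a level of few reads.

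Among the genes of QC cells only, *EXL3*, related to the growth gene *EXORDIUM*, had the highest median, with 0, 321 and 2177 FPM in QC cells and detection in 19 of 20. Then came *NADK1*, *WOX11* and *MBF1C*, followed by AT3G04350, AT2G44280 (a transporter of the major facilitator superfamily), *MLO11* and AT3G03080 (a zinc-binding dehydrogenase), with medians of 32.8 to 33.9 FPM for these 4. AT3G04350 was at 0 in the median of QC cells 15 to 18 and had a median of 289.6 FPM in QC cells 1 and 8 to 13.

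Some of the largest median differences belonged to genes whose cells overlapped. These were picked after the values were seen. *BCB*, a blue copper-binding protein gene known from wounding and metal stress, had the largest difference toward QC cells, at 11.14, with 4.75, 2276 and 7318 FPM in QC cells and 30.1, 0 and 0 FPM in stele cells. Only QC cells 14 and 20 were below stele cell 1. *NAP*, a NAC factor of senescence, gave 1.52, 1219 and 5214 FPM in QC cells and 1.63, 0.284 and 32.0 FPM in stele cells. *SUFE2*, which activates cysteine desulfurase, gave 1.47, 562 and 2983 FPM in QC cells and 9.19, 0 and 0.295 FPM in stele cells. All 3 were lowest in the deepest set, with differences of 4.34, 2.30 and 2.29 in QC cells 14, 19 and 20.

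*AER*, an alkenal reductase, gave 1.31, 1045 and 3371 FPM in QC cells and 22.9, 7.54 and 29.4 FPM in stele cells, a difference of 5.45. Its neighbours AT5G16980, AT5G16990 and AT5G17000, close copies among which reads may be shared, had differences of 5.57, 5.07 and 5.46. Of the 11 detected members of this dehydrogenase family, also picked after the values were seen, 5 were past the fold toward QC cells and none toward stele cells. *CYP83B1*, which commits indole compounds to glucosinolates, gave 0.0815, 88.1 and 5288 FPM in QC cells and 2.23, 0 and 0 FPM in stele cells, and its difference ran from 3.48 in QC cells 1 and 8 to 13 to 12.03 in QC cells 14, 19 and 20.

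Heat shock genes split the QC cells. *HSP70* (AT3G12580) gave 0.769, 1225 and 28751 FPM in QC cells and 46.4, 32.6 and 22.9 FPM in stele cells, a difference of 5.19, and 4 QC cells lay below all stele cells. Its difference was 6.43 in QC cells 2 to 7 and -4.01 in QC cells 14, 19 and 20. *HSP90.1* gave 4.46, 287 and 17004 FPM in QC cells and 21.6, 25.4 and 7.68 FPM in stele cells. Of the 8 heat shock genes listed, 2 were past the fold toward QC cells and 1, *BIP2*, toward stele cells. *BIP2*, the chaperone of the endoplasmic reticulum, gave 0, 1.77 and 1125 FPM in QC cells and 926, 4042 and 1297 FPM in stele cells. The list median was 1.15, and taken by set it was 5.20 in QC cells 2 to 7 and 0.00 in QC cells 15 to 18. HSP20-like chaperones, a list picked after the values were seen, had 21 members detected and a median of 0.00. Of these, 3 were past the fold toward QC cells and 6 toward stele cells, beside 2.67% and 49.0% of all genes tested.

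Wound and early stress factors differed in both directions. Of 15 detected, 2 were past the fold toward QC cells and 8 toward stele cells, with a list median of -2.39. Of all genes tested, 2.67% and 49.0% were past it, with a median of -1.90. *ZAT10*, a zinc finger gene of salt and cold stress, gave 0.899, 371 and 2658 FPM in QC cells and 66.2, 0.320 and 1.33 FPM in stele cells, a difference of 7.28. *ERF13* gave 0, 2.08 and 1495 FPM in QC cells and 202, 329.8 and 145 FPM in stele cells, a difference of -6.25, but it was higher than the stele in QC cells 14, 19 and 20 with 2.22. *WRKY33*, a defense regulator, had a difference of -4.90 over all QC cells and 2.89 in QC cells 15 to 18. *ERF5*, an ethylene response factor gene, had -4.41 over all QC cells and 0.68 in QC cells 14, 19 and 20. The list median was 1.41 in QC cells 15 to 18 and -2.88 in QC cells 2 to 7, so its direction depended on the library set.

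Regulators of the vasculature were mostly higher in stele cells. Of 26 listed genes, 19 were detected, none were past the fold toward QC cells and 13 toward stele cells, and for 11 every stele cell was above every QC cell. Over all genes tested, 49.0% were past the fold toward stele cells and 14.5% had every stele cell above. The 11 include *SMXL5*, at 0.0356 to 0.258 FPM in stele cells. They also include *PXY* and *ACL5*, whose lowest stele cells held 0.0492 and 0.107 FPM. The list median was -4.87, against -1.90 for all genes tested, and it ran from -4.79 in QC cells 2 to 7 to -4.16 in QC cells 14, 19 and 20.

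The class III homeodomain leucine zipper genes, which set xylem and organ polarity, led it. *ATHB-8* was at 0 in all 20 QC cells, against 325, 515 and 204 FPM in stele cells, a difference of -8.35. *ATHB-15* was at 0 in all 20 QC cells, against 373, 29.1 and 233 FPM in stele cells. *REV* was at 0 in the median QC cell and reached 54.4 FPM in 1 of them, against 208, 239 and 108 FPM in stele cells. *PHB* reached 22.5 FPM in QC cells, against 146, 35.4 and 129 FPM in stele cells. The fifth gene of the family, *PHV*, overlapped, with up to 318 FPM in QC cells and 32.6, 3.38 and 99.7 FPM in stele cells.

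*TMO5*, a bHLH factor of vascular cell division, was at 0 in QC cells and gave 51.0, 382 and 2.07 FPM in stele cells. Its partner *LHW* was detected in 11 of 20 QC cells, up to 672 FPM, against 26.7, 11.7 and 40.4 FPM in stele cells, and its difference of -4.72 became 0.73 in QC cells 14, 19 and 20. *OPS*, a regulator of protophloem, had a difference of -6.62. *ACL5*, a thermospermine synthase of xylem, was at 0 in QC cells and gave 49.1, 0.107 and 16.9 FPM in stele cells. *PXY*, a receptor of the cambium, was also at 0 in QC cells but low in stele cells, at 4.81, 0.996 and 0.0492 FPM.

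Markers of meristematic xylem taken from microarrays were past the fold toward QC cells in 1 of 18 detected, the histone gene AT5G10390, and toward stele cells in 11. Over all genes tested the shares were 2.67% and 49.0%. The list median was -4.44, against -1.90 for all genes tested. Without stele cell 1 it was -2.82 and without stele cell 2 -2.86. The largest differences in this list were those of *NET1A*, *scpl35*, AT1G29950 and *SHR*, at -7.29, -7.19, -6.44 and -5.66. *NET1A*, an actin-binding protein gene, was at 0 or under 1 FPM in all QC cells, against 171, 156 and 85.5 FPM in stele cells. Summed over the list, QC cells had 4.92, 44.9 and 671 FPM, against 784, 1320.1 and 448 FPM in stele cells.

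Some genes of other stele tissues were also seen in these 3 cells. Detected microarray markers were past the fold toward stele cells in 1 of 8 for pericycle and 1 of 12 for companion cells. It was 1 of 5 for protoxylem, 2 of 5 for phloem and 3 of 8 for protophloem. For late phloem-pole and xylem-pole pericycle it was 8 of 17 and 3 of 6, beside 49.0% of all genes tested. Outside the stele, it was 4 of 11 for non-hair epidermis and 2 of 4 for hair epidermis. The non-hair epidermis markers summed to 209, 289 and 92.9 FPM in stele cells, against 53.3, 9.46 and 19.0 FPM for pericycle. In the phloem list and in the hair epidermis list 1 marker each was past the fold toward QC cells. *NAC045*, which controls enucleation of sieve elements, was at 0 in all QC cells, against 477, 2.35 and 466 FPM in stele cells, with stele cell 2 near 0. *BAM3*, a receptor kinase of protophloem, was at 0 in QC cells and gave 12.5, 4.94 and 15.4 FPM in stele cells. *SKOR*, a potassium channel of pericycle and xylem parenchyma, was at 0 in QC cells and gave 12.2, 0.0356 and 6.10 FPM in stele cells. It was the only 1 of the 5 listed pericycle genes detected. In the xylem list 2 genes were detected. *VND7* was at 0 in QC cells and gave 0.945, 232 and 0.640 FPM in stele cells. *IRX3* was at 0 in stele cells and reached 321 FPM in QC cells, 12 of which detected it. The 3 stele cells differed from each other in the genes of this group that were detected in them. With 3 cells it cannot be said how far they stand for the stele.

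*ATMS1*, a cytosolic methionine synthase, had the largest difference toward stele cells among the genes with no overlap. It gave 0, 0.212 and 1040.4 FPM in QC cells and 10720.0, 3894 and 6923 FPM in stele cells, a difference of -12.49. It was not absent from all QC cells, with medians of 648 FPM in QC cells 14, 19 and 20 and 0 FPM in QC cells 2 to 7, and every stele cell was above every QC cell. *MS2*, its close relative, gave 0, 0.114 and 187 FPM in QC cells and 1532, 693 and 1209.7 FPM in stele cells. The genes of the methionine and methyl cycle are a list picked after the values were seen. Beside 49.0% of all genes tested, 15 of its 17 detected genes were past the fold toward stele cells, and none toward QC cells. The 15 include *SHM4*, a serine hydroxymethyltransferase, with a median of 0 in QC cells and 819, 1183 and 361 FPM in stele cells. They also include *MTHFR1*, a folate reductase, with a median of 0 in QC cells and 637, 758 and 495 FPM in stele cells.

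The synthetases that make S-adenosylmethionine from methionine were also lower in QC cells but present in all of them. *SAM-2* gave 0.562, 159.9 and 683 FPM in QC cells and 1222, 1605 and 1440.0 FPM in stele cells, a difference of -3.18. *SAM1* gave 0.150, 100.7 and 2862 FPM in QC cells and 1429, 1572 and 1871 FPM in stele cells, a difference of -3.95. The decarboxylases that draw S-adenosylmethionine into polyamines ran the other way. *SAMDC* gave 0.766, 825 and 2384 FPM in QC cells and 15.0, 348 and 23.6 FPM in stele cells, a difference of 5.07, with stele cell 2 well above stele cells 1 and 3. AT5G15950, of the same family, had a difference of 3.81, so 2 of 3 detected genes of this family were past the fold toward QC cells. Near-identical stretches of these genes may share reads.

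Tubulins, the subunits of microtubules, followed among genes with no overlap. Of 15 alpha and beta tubulin genes, 13 were past the fold toward stele cells, and for 11 every stele cell was above every QC cell. Over all genes tested the shares were 49.0% and 14.5%. The tubulins summed to 25.2, 2067 and 7799 FPM in QC cells and 20979, 49530.0 and 14409 FPM in stele cells. *TUA4*, *TUA6* and *TUA2* had differences of -11.49, -11.42 and -11.38, and *TUA3* and *TUA5* had -10.41 and -10.40. *TUA2*, *TUA4* and *TUA6* are near copies, as are *TUA3* and *TUA5*, and reads with several locations were counted in part, so their values are not separate results. *TUB2* and *TUB3* were short of the fold, and *TUB3* gave 8.37, 778 and 2606 FPM in QC cells and 2010.1, 4320.2 and 1369.9 FPM in stele cells, with overlap. The tubulins as a list, also picked after the values were seen, had a median of -5.71 over all QC cells and -2.71 in QC cells 14, 19 and 20.

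Genes that supply sugars to the cell wall, another list picked after the values were seen, differed likewise. Of 26 detected genes of nucleotide sugar synthesis, 1 was past the fold toward QC cells and 20 toward stele cells. Over all genes tested the shares were 2.67% and 49.0%. *UDG4*, a UDP-glucose dehydrogenase, gave 0, 0 and 242 FPM in QC cells and 756, 1533 and 1006 FPM in stele cells, a difference of -9.98. *RHM1*, a rhamnose synthase, gave 0, 0.0313 and 162 FPM in QC cells and 670.3, 914 and 1024 FPM in stele cells. *UGP1*, a UDP-glucose pyrophosphorylase, gave 0, 0.0313 and 174 FPM in QC cells and 631, 1172 and 561 FPM in stele cells. The exception was *UGE1*, a UDP-glucose epimerase, which was at 0 in stele cells and gave 0.0641, 26.9 and 1692 FPM in QC cells. *UGE1* was highest in QC cells 1 and 8 to 13, with a difference of 7.15.

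Cellulose synthesis genes of the primary wall were past the fold toward QC cells in none of 8 and toward stele cells in 7, with a median of -6.04. Over all genes tested the share toward stele cells was 49.0% and the median -1.90. *COB*, a membrane-anchored protein of oriented expansion, gave 0, 0 and 324 FPM in QC cells and 483, 627 and 295 FPM in stele cells. *CESA6*, *CESA3* and *CESA5* had differences of -8.80, -7.90 and -6.57. *CESA3* was detected in all 20 QC cells, with 0.0828, 1.91 and 678 FPM, against 674, 790.1 and 525 FPM in stele cells, and 1 QC cell overlapped. *CESA1* had the smallest difference of the 7, at -2.31.

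*DWF1* and *CPD*, which encode enzymes of brassinosteroid synthesis, differed alike. *DWF1* gave 0, 0.120 and 589 FPM in QC cells and 1460.1, 1269.7 and 1173 FPM in stele cells, a difference of -10.15, and its difference was -1.40 in QC cells 14, 19 and 20. *CPD* was at 0 in all 20 QC cells, against 607, 242 and 541 FPM in stele cells. The brassinosteroid receptor gene *BRI1* ran the other way, at 0.139, 229.7 and 2324 FPM in QC cells and 11.3, 146 and 7.28 FPM in stele cells, a difference of 4.20, but its difference was -2.88 in QC cells 2 to 7.

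*PATL1*, a patellin of the forming cell plate, had the highest stele median among genes of stele cells only, at 0 in all 20 QC cells and 1680.1, 1193 and 1207 FPM in stele cells. Beside it and *CPD*, the 8 highest were *PRXR1*, a peroxidase, *MGL*, a methionine gamma-lyase, *DELTA-TIP*, a tonoplast aquaporin, *RSH2*, AT1G62480 and AT1G14890. The 3 stele cells gave 1076, 861 and 462 FPM for *PRXR1*, 745, 106 and 849 FPM for *MGL* and 588, 347 and 542 FPM for *DELTA-TIP*. AT1G62480 gave 1270.2, 4.62 and 828 FPM and *RSH2* 589.7, 6.22 and 1238 FPM, both low in stele cell 2. *GAD*, a glutamate decarboxylase, gave at most 0.0832 FPM in QC cells and 904, 586 and 1265 FPM in stele cells. *PIA1*, a protein phosphatase, gave at most 24.2 FPM in QC cells and 2301, 323 and 2132 FPM in stele cells.

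The library kit did not keep the strand, so reads of overlapping genes cannot be told apart. Among the genes described, this touches *GL2*, *NADK1*, *PLT3*, *UGT73B5*, *UGT73B4*, *MBF1C*, *TUA2*, *TUA5*, *DWF1*, *PIA1*, *MGL*, *DELTA-TIP*, *CPD*, *REV*, *NAC045*, *SKOR*, *ARR1*, *CYCA2;3*, AT3G27360, *TSO2*, *MYC2*, *WRKY33*, *ERS1*, *CESA3*, AT5G02960, *NET1A*, *MTHFR1*, *UGE1*, *RHM1*, *MP*, *ACL5* and *CESA1*.

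Aquaporins and expansins are also lists picked after the values were seen. Aquaporins were past the fold toward QC cells in none of 19 detected and toward stele cells in 16. Expansins were mixed, with 2 of 18 past the fold toward QC cells, *EXPA4* and *EXPA9*, and 7 toward stele cells, *EXPA15* and *EXPB1* leading. Of all genes tested, 49.0% were past the fold toward stele cells.

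Auxin genes differed in both directions. Of 17 detected genes of auxin synthesis and transport, 2 were past the fold toward QC cells and 10 toward stele cells. Over all genes tested the shares were 2.67% and 49.0%. *TAA1*, the aminotransferase that starts auxin synthesis from tryptophan, gave 2.87, 1128 and 4338 FPM in QC cells and 86.6, 454 and 22.9 FPM in stele cells, a difference of 3.68 that held between 3.20 and 4.02 in the 4 sets. *YUC8*, of the next step, gave 0, 7.91 and 1187 FPM in QC cells and 0.516, 0 and 0 FPM in stele cells, and *YUC5* was at 0 in QC cells and gave 457, 2.70 and 550.0 FPM in stele cells. The efflux carriers *PIN3* and *PIN7* and the influx carrier *LAX3* had QC medians of 0, against 232, 318 and 105 FPM for *PIN3*, 100.9, 133 and 96.2 FPM for *PIN7* and 1532, 228 and 441 FPM for *LAX3* in stele cells. *PIN4*, another efflux carrier, gave 0, 0.750 and 4361 FPM in QC cells and 126, 58.8 and 43.7 FPM in stele cells. It was higher than the stele in QC cells 14, 19 and 20, with a difference of 5.21, and lower in the other sets, and the list median was 2.22 in that set against -4.73 over all QC cells.

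The *GH3* genes, whose enzymes join amino acids to auxin or jasmonate, also split, a family picked after the values were seen. *BRU6*, *GH3.1*, *GH3.4* and *GH3.3* were past the fold toward QC cells, and *JAR1*, *WES1* and *DFL1* toward stele cells. These were 4 and 3 of 12 detected, beside 2.67% and 49.0% of all genes tested. *BRU6* gave 0.669, 377 and 7594 FPM in QC cells and 21.1, 0 and 0 FPM in stele cells, and was low in QC cells 14, 19 and 20, with a difference of 0.80. *UGT74E2*, which glucosylates an auxin precursor, gave 0.139, 392 and 8443 FPM in QC cells and 12.9, 0.107 and 0.0492 FPM in stele cells, a difference of 8.44, and was at 0.09 in that set.

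Of 32 detected genes of auxin response, 1, *IAA33*, was past the fold toward QC cells and 19 toward stele cells, with a list median of -3.15. Over all genes tested the shares were 2.67% and 49.0%, with a median of -1.90. *IAA17*, *IAA16* and *IAA19* were at 0 in all 20 QC cells, against 189, 2.84 and 196 FPM for *IAA17*, 20.1, 113 and 118 FPM for *IAA16* and 71.2, 259 and 32.0 FPM for *IAA19* in stele cells. *IAA2* was detected in 17 QC cells, with a median of 0.266 FPM, against 191, 378 and 395 FPM in stele cells.

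Cytokinin signaling was past the fold toward QC cells in none of 17 detected genes and toward stele cells in 12, with a list median of -4.16. Over all genes tested the share toward stele cells was 49.0% and the median -1.90. Beside *WOL*, the response regulators *ARR4*, *ARR8* and *ARR1* had differences of -5.38, -4.91 and -4.79, and *ARR4* turned to 0.19 in QC cells 14, 19 and 20. *ARR1*, a transcriptional activator of the pathway, gave 0, 3.39 and 407 FPM in QC cells and 169.5, 120.4 and 63.5 FPM in stele cells, with overlap.

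Jasmonate genes were past the fold toward QC cells in none of 19 detected and toward stele cells in 14, with a list median of -5.75, and -1.73 in QC cells 15 to 18. Over all genes tested the share toward stele cells was 49.0% and the median -1.90, and -0.68 in QC cells 15 to 18. *JAZ9*, a repressor, was at 0 in QC cells and gave 212, 1.28 and 262 FPM in stele cells. *JAR1*, which makes the active conjugate, gave 0, 0 and 96.9 FPM in QC cells and 340.0, 135 and 344 FPM in stele cells, and *LOX3*, a lipoxygenase of the first step, gave 0, 0 and 506 FPM in QC cells and 211, 1.49 and 466 FPM in stele cells. *MYC2*, the main transcription factor of the pathway, gave 0, 1.52 and 980.2 FPM in QC cells and 449.9, 598 and 256 FPM in stele cells, a difference of -7.49 over all QC cells and 0.92 in QC cells 14, 19 and 20. The roots of the stele cells had been cut just before harvest, and the effect of the cut cannot be told apart from that of the cell type.

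Gibberellin genes were past the fold toward QC cells in 2 of 18, the synthesis genes *GA3* and *KAO2*, and toward stele cells in 10. Among all genes tested the shares were 2.67% and 49.0%. *KAO2* gave 0, 44.8 and 313 FPM in QC cells and 2.92, 1.46 and 0.246 FPM in stele cells, and its difference was -1.13 in QC cells 2 to 7. *GA2OX6*, which inactivates gibberellins, gave at most 0.485 FPM in QC cells and 399, 5.26 and 1119 FPM in stele cells. The DELLA repressors *GAI* and *RGA1* and the receptor *GID1C* had differences of -4.94, -4.67 and -4.85, and *RGA1* turned to 0.29 and *GID1C* to 3.17 in QC cells 15 to 18. Of 14 detected ethylene genes, 6 were past the fold toward stele cells, beside 49.0% of all genes tested. Toward QC cells 1 was past it, *EBF1*, an F-box protein gene of ethylene signaling, at 2.96. The signal transducer *EIN2*, the synthesis genes *ACS6* and *ACS8* and the receptor *ERS1* led the stele side, with differences of -7.03, -6.42, -5.02 and -5.51, and *ERS1* turned to 1.50 in QC cells 1 and 8 to 13.

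Genes of the cell cycle were detected in part. Of 28 listed cyclins, kinases and inhibitors, 15 were detected, none were past the fold toward QC cells and 8 toward stele cells, beside 49.0% of all genes tested. As a list they had a median of -2.70 over all QC cells, -0.32 in QC cells 14, 19 and 20 and -0.37 in QC cells 15 to 18. *CDKA;1*, the main cell cycle kinase, gave 0, 0.258 and 376 FPM in QC cells and 156, 119 and 82.5 FPM in stele cells, a difference of -6.57. *CYCA2;3* and *CYCD3;3* had differences of -6.22 and -4.63, with stele cell 1 near 0 for *CYCD3;3*, at 0.172, 23.7 and 23.8 FPM. In QC cells 14, 19 and 20 both were higher than the stele, with 0.57 for *CYCA2;3* and 1.32 for *CYCD3;3*. *KRP6*, an inhibitor, had a difference of -4.17. Of 18 detected genes of DNA replication, 1 was past the fold toward QC cells, the histone gene AT5G10390, and 3 toward stele cells, the histone genes AT3G27360 and AT5G10400, which are close copies of it, and *TSO2*, a ribonucleotide reductase subunit. Over the QC cells nested in no other, set against stele cell 1 alone, AT5G10400 turned to 0.97. Taken alone, QC cells 14, 19 and 20 had a list median of 4.25, against -0.84 over all QC cells.

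Of 11 starch synthesis genes, 5 were past the fold toward stele cells, among them *SBE2.2*, a branching enzyme, with -3.67, and *PGM*, which supplies glucose 1-phosphate, with -2.62, beside 49.0% of all genes tested. None were past the fold toward QC cells, and *APL4*, described above, is not in this list. Over the list the median was -1.06 over all QC cells and 2.79 in QC cells 14, 19 and 20, where *SBE2.2* had 0.17 and *PGM* 3.34. *PGM* was also higher than the stele in QC cells 15 to 18, with 1.17. Of 7 detected genes of indole glucosinolate and camalexin synthesis, *CYP83B1* was past the fold toward QC cells and *UGT74B1* and *SUR1* toward stele cells, with -4.23 and -3.52. Over all genes tested the shares were 2.67% and 49.0%. The list median was 0.00 over all QC cells and 5.87 in QC cells 14, 19 and 20, where *SUR1* had 0.33. *TTG1* and *CPC*, regulators of epidermal patterning that the epidermis list holds, were past the fold toward stele cells with -4.28 and -3.62. They were 2 of 5 detected members of that list, beside 49.0% of all genes tested.

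Ribosomal protein genes differed in direction between library sets. Of 314 detected, 1 was past the fold toward QC cells and 186 toward stele cells, with a median of -2.47 against -1.90 for all genes tested. Over all genes tested the shares were 2.67% and 49.0%. In QC cells 1 and 8 to 13 the median was -3.10, and in QC cells 14, 19 and 20 it was 1.21. *EMB2296*, a ribosomal protein gene of the L2 family, gave 0, 1.39 and 1156 FPM in QC cells and 353, 337 and 200.01 FPM in stele cells, with medians of 1139 FPM in QC cells 14, 19 and 20 and 0.170 FPM in QC cells 2 to 7. AT3G11510, AT5G02960 and AT2G19730 behaved alike, with differences of -7.63, -7.51 and -7.07 over all QC cells and 1.53, 0.77 and 1.09 in that set. No locus of the chloroplast or mitochondrial genome was above 0 in any of the 23 cells.

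**Figure D5:**
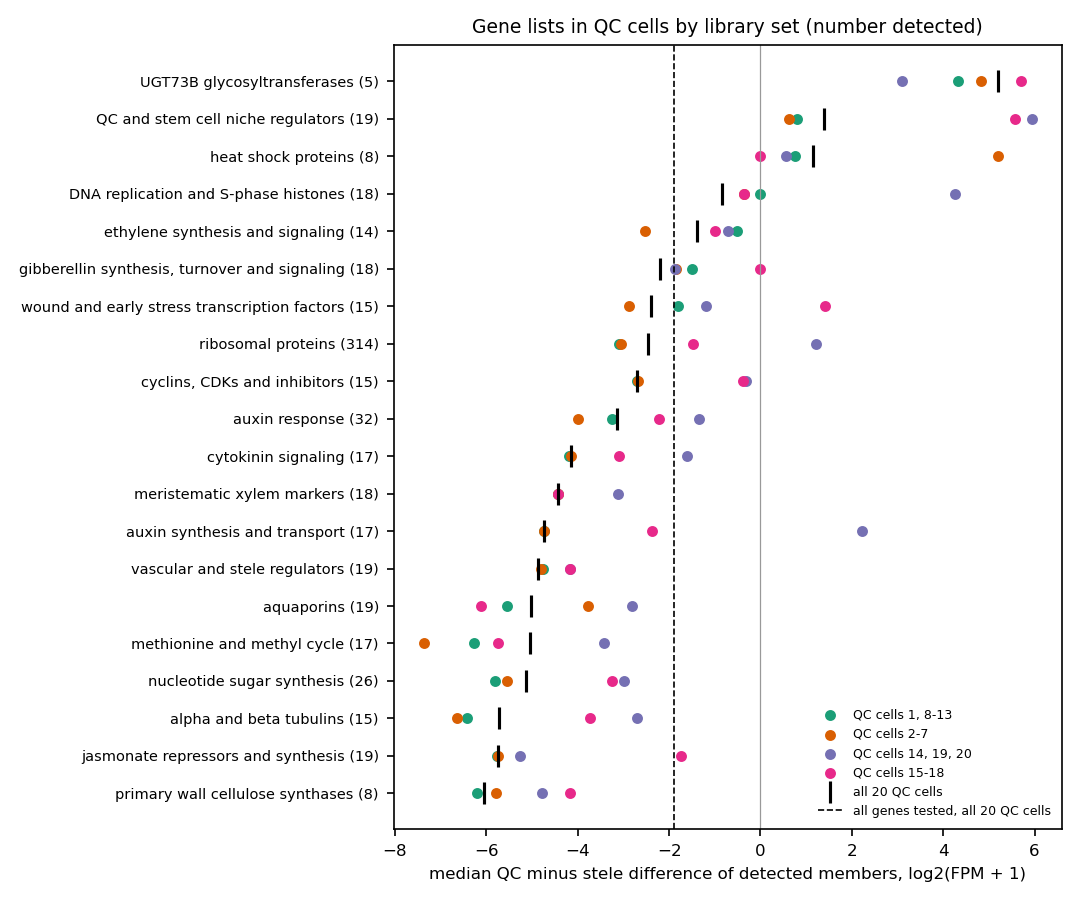
Median QC minus stele difference on the log2(FPM + 1) scale (x) over the detected members of 20 gene lists (rows, number detected in brackets), for all 20 QC cells (black marks) and each QC library set (points), with the median of all genes tested as a dashed line. The niche list lay right of 0 and the vascular and meristematic xylem lists left of the dashed line in every set, and the ribosomal, replication and auxin transport lists lay right of 0 in QC cells 14, 19 and 20.

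The library sets moved the comparison as a whole. The median difference over all genes tested was -1.75 in QC cells 1 and 8 to 13, -1.94 in QC cells 2 to 7, -0.83 in QC cells 14, 19 and 20 and -0.68 in QC cells 15 to 18. Past the fold toward QC cells were 713 genes in QC cells 1 and 8 to 13, 680 in QC cells 2 to 7, 1691 in QC cells 14, 19 and 20 and 1749 in QC cells 15 to 18. *WOX5*, *BBM*, *PLT3*, *TAA1* and *UGT73B4* were past the fold toward QC cells in all 4 sets, and *ATHB-8*, *SHR*, *WOL*, *PHB* and *PATL1* toward stele cells in all 4.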

How the data were processed

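Single cells of *A. thaliana* roots were profiled by RNA-seq after amplification of polyA RNA. The authors deposited 1 table of log2 values, log2 of read counts plus 1 after a scaling of each library. The submitters' processing notes name TAIR10 and Bowtie2, and per the methods reads with several locations were counted in part and genes under a minimum of coverage were removed. CFP and GFP rows, the 4 aliquots and the 4 stele cells at 16 h were not used, and no column of values was left without a sample. Values were turned back to the linear scale and each cell scaled to 1000000 over the other loci. Reads per library were taken from the smallest step between values. All values under 1000 reads came out whole within 0.05. A step can be less than 1 read where reads were counted in part.

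A pseudocount of 1 FPM was added before log2, and a difference of medians of 2 was the fold. No test was run. Named genes are *WOX5*, *SHR*, *WOL*, *SCR* and *GL2*, the 12 largest differences in each direction among genes with no overlap, the 8 highest medians among genes of 1 cell type, and up to 4 members of each list past the fold. Other named genes were chosen after their values were seen. A single gene is not reported here. The members and lists were chosen with earlier results of these data known. Symbols came from the TAIR10.1 RefSeq annotation, in which 31912 of 32678 loci were found. Python 3.11.15, numpy 2.4.6, pandas 2.3.3 and matplotlib 3.10.9 were used, and the computations were tested on simulated data. Alternatives were other scalings, thinning, pseudocounts of 0.1 and 10 FPM, means, filters, and leaving out cells or sets of cells. Library totals cover counting error only.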

Additional observations from a re-analysis of the deposited data

Results flagged for a closer look

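The rows of the 2 fluorescent reporters were left out of the gene comparison and showed a signal of their own. On the deposited log2 scale, the CFP row was at 0 in 12 QC cells, above 0 in 8 and at most 4.52 there, against 14.07, 15.76 and 15.94 in stele cells 1, 2 and 3, a stele median of 15.76. The GFP row was at 0 in 13 QC cells, above 0 in 7 and at most 4.75 there, against 13.91, 15.60 and 15.78 in the stele cells, a stele median of 15.60. The stele line carries CFP and the QC line GFP. The 2 reporter sequences are close copies, so that reads of one can count for the other, and the low GFP values of cells picked for GFP are given as measured.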

How the results depend on the processing

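Each value was recomputed with other scalings, thinning to the lowest library total, pseudocounts, filters and sets of cells. No paired analysis was possible because QC and stele cells share no plant, batch or pairing in the labels and no test was run. Scaling moved the median of all genes tested from -1.90 to -1.48 with median ratios and to -2.31 with FPM over the loci found in all 23 cells. Of the values of named genes under these alternatives, 2486 moved by less than the spread of QC cells and 884 moved by more. A further 27 changed sign from a difference of 2 or more in either direction. Sign changes of smaller differences were not counted apart. The cause was not tested in any case.

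Genes with every QC cell above every stele cell, 27 in all, became 18 with libraries thinned. They became 52 with QC cells 15 and 16, and 17 and 18, averaged, and 133 where 18 of 20 QC cells sufficed. Without QC cells 1 and 8 to 13, 2 to 7, 14, 19 and 20, and 15 to 18, they were 41, 46, 44 and 95. Leaving out stele cells in turn gave 29 to 60 such genes, 2503 to 2832 with every stele cell above every QC cell, 425 to 528 and 7979 to 8287 past the fold toward QC and stele cells, and 182 to 256 and 1494 to 1686 in QC and stele cells only. Over the same omissions the list medians ran from 1.40 to 1.99 for the niche, -4.90 to -4.16 for the vasculature and -4.81 to -2.82 for meristematic xylem, and stayed at 0.00 for QC markers. The 2359 genes with every stele cell above became 3817 without QC cells 14, 19 and 20 and 4826 where 18 of 20 QC cells sufficed, and the 1494 of stele cells only became 2607, 956 at 1 FPM and 578 at 10 FPM. The 182 of QC cells only became 25 at 1 FPM and 37 at 10 FPM. Past the fold, counts toward QC and stele cells were 261 and 3658 with a pseudocount of 10 FPM, 766 toward QC cells at a difference of 1, and 1426 and 4931 relative to the median.

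With the sets taken alone, an alternative chosen after seeing the data, QC cells 1 and 8 to 13, 2 to 7, 14, 19 and 20, and 15 to 18 gave 330, 309, 1625 and 987 genes with QC cells above, 6502, 6861, 4985 and 6193 with stele cells above, 713, 680, 1691 and 1749 past the fold toward QC cells, 379, 376, 1122 and 587 of QC cells only, counted at the same share of cells, and 5744, 6073, 3070 and 3787 of stele cells only. The cells nested in no other were QC cells 1, 2 and 14 to 18, set against stele cell 1 alone. They gave 244, 5363 and 1080 for the first 3 of these, which are not like counts made against 3 stele cells.

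The niche median of 1.40 was 4.89 without QC cells 2 to 7, 5.93 in QC cells 14, 19 and 20 and 5.57 in QC cells 15 to 18, and the QC marker median of 0.00 was 5.18 in QC cells 14, 19 and 20. The vascular median of -4.87 and the meristematic xylem median of -4.44 were -7.41 and -7.58 with a pseudocount of 0.1 FPM, -2.07 and -1.62 with 10 FPM, -3.24 and -3.27 with means, and -2.97 and -2.54 relative to the median, and in QC cells 14, 19 and 20 they were -4.16 and -3.11. The vascular median was also -4.16 in QC cells 15 to 18.

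Turns of direction were sought among named genes and lists with a difference of 2 or more in either direction. They occurred only in QC sets taken alone or in the cells nested in no other. In QC cells 14, 19 and 20, *ARR4* had 0.19, *CYCA2;3* 0.57, *CYCD3;3* 1.32, *MYC2* 0.92, *ERF13* 2.22, *ERF5* 0.68, *HSP70* -4.01, *SUR1* 0.33, *SBE2.2* 0.17, *PGM* 3.34, AT3G11510 1.53, AT5G02960 0.77, *EMB2296* 1.75, AT2G19730 1.09, *LHW* 0.73 and *PIN4* 5.21, and the auxin transport and ribosomal lists had medians of 2.22 and 1.21. In QC cells 15 to 18, *WRKY33* had 2.89, *GID1C* 3.17, *RGA1* 0.29 and *PGM* 1.17, and the wound list a median of 1.41. *ERS1* had 1.50 in QC cells 1 and 8 to 13, and *BRI1* had -2.88 and *KAO2* -1.13 in QC cells 2 to 7. The cells nested in no other were QC cells 1, 2 and 14 to 18, set against stele cell 1 alone. There AT5G10400 had 0.97, *WRKY33* 0.051, *GID1C* 4.03 and *PGM* 0.46, and stele cells 2 and 3 did not enter. With 3 stele cells and 1 amplification for each cell, a 0 as deposited is not the same as absence, and it carries no limit from read counts.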
